A study of Mus musculus with 2 samples.

Results

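The genes described here are 10 heat shock chaperones, chosen by gene symbol from the 20938 genes of the deposited RNA-seq tables, and all 10 had reads in both libraries. They were picked from knowledge of the family with earlier results of these data in view, so their values are given as a description and without a test. Splenic Treg cells were collected on day 7 after islet transplantation, and 1 library was made from Foxp3-Mettl14f/+ cKO mice and 1 from littermate controls. In the cKO mice 1 floxed Mettl14 allele is removed by a Cre under Foxp3 control, which acts in Foxp3-expressing cells, and the mice have a C57BL/6J background. The sample labels give the controls as wild type and the methods give them as Mettl14f/f, and the labels call the second library KD and its genotype a knockdown of Foxp3. Recipients in both groups were made diabetic with streptozotocin and received BALB/c islets under the kidney capsule, without the tolerance-inducing anti-CD45RB and anti-CD40L antibodies. The cells were enriched with magnetic beads as CD4+CD25+ cells; neither the age of the mice nor the number of mice behind a library is given in the sources used here. Each genotype is a single library, so differences could not be set against a spread between replicates, and every interval below covers counting error only.

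Heat shock proteins are chaperones that bind unfolded or partly folded proteins and let them fold, refold or be handed on for degradation. HSP70 proteins hold short hydrophobic stretches in cycles of ATP hydrolysis that J-domain (HSP40) proteins start and nucleotide exchange factors end, and HSP90 proteins act later, on nearly folded clients such as kinases and steroid receptors. Some members are made at all times, whereas others are switched on by heat shock factor 1 (HSF1), which binds inverted repeats of a short motif in their promoters. In T cells, activation and rapid growth raise the demand for these proteins, and HSP90 and HSP70 clients include kinases of antigen receptor signaling. For the comparison, Hspa1a, Hspa1b, Hsph1, Hsp90aa1 and Dnajb1 were taken as heat-inducible. Hspa8 and Hsp90ab1 in the cytosol, Hspa5 in the endoplasmic reticulum (ER), and Hspd1 and Hspe1 in mitochondria were taken as constitutive, although ER stress induces Hspa5.

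The start regions of the members differ in exact matches to the motifs that heat shock and ER stress factors recognize. RefSeq promoter windows on GRCm38, from 250 bases before to 50 bases after a start site, were at hand for 7 members in 10 windows, and none was read for Hspa8, Hsp90aa1 and Hsp90ab1. A heat shock element of 2 units was searched as GAANNTTC or TTCNNGAA. One of 3 units was GAANNTTC followed by NN and GAA, or TTCNNGAA followed by NN and TTC, so that it contains an element of 2 units. Both strands are covered, because each pattern reads as itself or its partner on the other strand. The ER stress response element was searched as CCAAT and CCACG with 9 bases between them, and as the reverse complement. Of 32851 windows in the table, 15.1% held 2 units, 0.603% held 3 units and 0.119% held the ER stress response element. Only exact letters were searched, so an element with a changed letter was not counted, and a window without a match may still hold one. Among the members, Hspd1, Hspe1 and Hsph1 held an exact match to 3 units, and Hspa1a and Hspa1b to 2 units only. Hspa5 held the ER element, and the windows of Dnajb1 held no exact match. The sites are shown 5′ to 3′ with the matched letters in capitals, to let the inverted repeats of the heat shock genes be set against the ER element of Hspa5.
Hspe1 at chr1:55088053-55088082, plus strand: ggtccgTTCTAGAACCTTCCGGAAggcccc
Hsph1 at chr5:149636287-149636316, minus strand: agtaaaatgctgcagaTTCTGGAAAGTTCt
Hspa5 at chr2:34772020-34772049, plus strand: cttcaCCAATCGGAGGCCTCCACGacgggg
The Hspe1 site, where overlapping matches run together, ran from -89 to -72 relative to its start. It also lay in a window of Hspd1, which is transcribed in the opposite direction, and the windows of these 2 genes shared 285 bases. The Hsph1 site lay from 37 to 49 after its upstream start, and the Hspa5 site from -65 to -47.

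Hspa1a and Hspa1b, neighbors on chromosome 17, are shown over the 250 bases before their starts because their sequences bear on how their reads can be told apart. Capitals mark the exact match to the heat shock element of 2 units, and looser matches were not searched.
Hspa1a at chr17:34972157-34972406, minus strand: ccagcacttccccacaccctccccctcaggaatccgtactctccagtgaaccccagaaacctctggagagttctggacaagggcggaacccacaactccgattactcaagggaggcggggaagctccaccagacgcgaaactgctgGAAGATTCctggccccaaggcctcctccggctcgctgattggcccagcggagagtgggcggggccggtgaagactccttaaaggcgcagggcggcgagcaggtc
Hspa1b at chr17:34959239-34959488, minus strand: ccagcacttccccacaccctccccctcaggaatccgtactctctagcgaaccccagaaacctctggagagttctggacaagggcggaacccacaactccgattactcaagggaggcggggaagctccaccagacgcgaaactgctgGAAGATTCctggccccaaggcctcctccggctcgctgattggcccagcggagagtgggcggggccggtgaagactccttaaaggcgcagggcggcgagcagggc
The full windows of these genes were identical at 296 of 300 positions. Their transcripts are alike too, and 62.3% of the 50-base stretches of the Hspa1b transcript occurred unchanged in that of Hspa1a. The way the authors assigned such reads is not given in the sources used here, so the split between these 2 genes is uncertain and their sum is given as well.

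**Figure D1:**
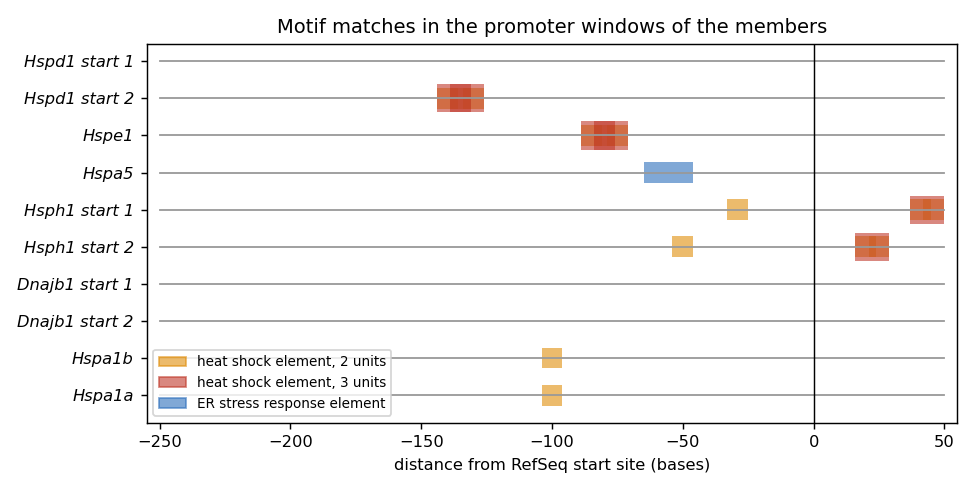
Exact matches to the heat shock element (2 or 3 units) and the ER stress response element in the 10 RefSeq promoter windows of 7 members, by distance in bases from the start site at 0. Start 1 and start 2 are alternative start sites of a gene; the element of 3 units appears in Hspd1, Hspe1 and Hsph1, and the ER element in Hspa5 alone among these windows.

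Every deposited value was a whole multiple of 1 step per library, and dividing by that step gave 20239325 control reads and 18327535 cKO reads. Changes are log2 fold changes on the deposited scale, cKO over control, with 1 added to both levels, and a gene is called lower or higher when it differs by at least 1.5-fold. Of 16659 genes whose mean level reached 1, 24.2% were lower and 17.2% higher in cKO cells, with a median change of -0.04. Mettl14, the gene targeted in the mice, had a level of 917 in the control and 741 in the cKO library. Its change of -0.31 (95% interval -0.45 to -0.16) was less than 1.5-fold. On the T cell core scale described next it was at 0.00, where the median of all genes was 0.26. All 9 genes listed as Treg markers were read in both libraries, Foxp3 with 1547 and 1361 reads. Markers of other cells differed between the libraries: all 12 B cell markers and all 15 macrophage markers were higher in the cKO library, and 13 of 16 erythroid markers were lower. The 13 granulocyte markers summed to a level of 262031 in the control and 355622 in the cKO library. The 15 T cell core genes summed to 73662 and 59552, so the chaperone reads cannot be assigned to Treg cells alone. In bulk RNA fewer cells of a type and less RNA per cell cannot be told apart. Because the 15 T cell core genes in the tables were lower as a group, members are also given with the summed level of those genes set equal between the libraries, called the T cell core scale below. It adds 0.31 to every change and moves the median of all genes to 0.26, so changes under it are read against 0.26.

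The chaperones took a smaller part of the cKO library. Together they held 160874 of the control reads, or 0.795% (95% exact Clopper-Pearson interval 0.791 to 0.799), and 90374 of the cKO reads, or 0.493% (0.490 to 0.496). Of the 10 members, 7 were at least 1.5-fold lower and 0 were higher, beside 24.2% of all genes lower and 17.2% higher. Below 0 were 9 members, beside 53.3% of all genes. The lower members were Hsph1, Hspd1, Hsp90aa1, Dnajb1, Hspe1, Hspa8 and Hspa1b. Hsp90ab1 lay just outside the threshold at -0.53 and Hspa1b just inside it at -0.60, whereas Hspa5 and Hspa1a were close to 0. Low genes crossed the threshold more often than abundant ones: of 4897 genes whose mean level reached 1000, 5.17% were lower, 10.1% were higher and 43.2% were below 0. Of the 8 members in that range 6 were lower and all 8 were below 0. On the T cell core scale, 2 members, Hsph1 and Hspd1, were at least 1.5-fold lower, beside 19.3% of all genes, a share near that of the members. That scale moves all genes by the same amount, so it leaves the place of the members among other genes as it was. Both genes have a mean level above 1000, and the share lower in that range was not computed on this scale, here or for the lists below. With a threshold of 2-fold on the deposited scale only Hsph1 was lower, beside 18.1% of all genes.

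**Figure D2:**
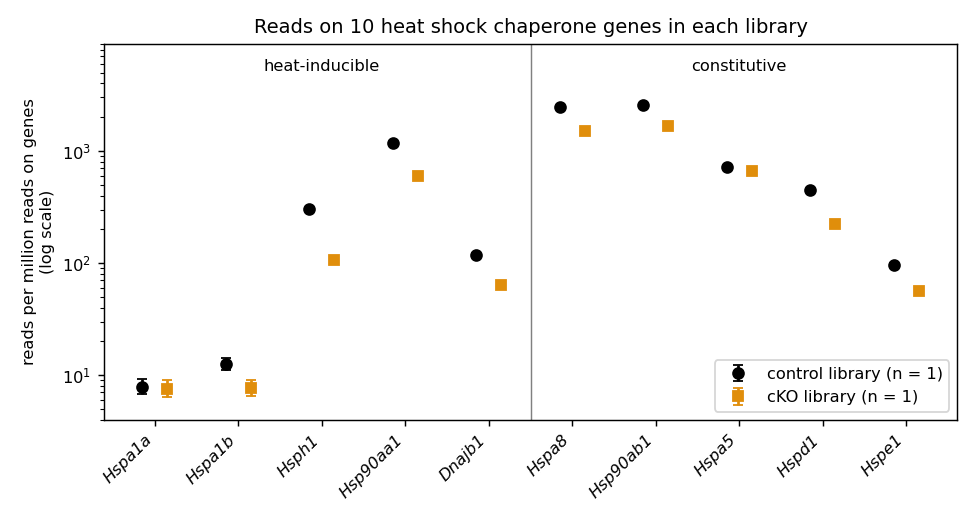
CPM, the reads scaled to a fixed library total, of each member in the control library (circles) and the cKO library (squares), on a log scale, with 95% exact Poisson intervals that are mostly smaller than the symbols. Hspa8 and Hsp90ab1 lie above 1000 CPM in both libraries, and Hspa1a and Hspa1b lie near 10.

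Among the heat-inducible members, Hsph1 had the largest difference of all 10. It encodes HSP110, a nucleotide exchange factor that lets HSP70 release ADP and its client, and is read from the minus strand of chromosome 5 between 149614287 and 149636376. Its reads numbered 6097 in control and 1944 in cKO cells. The cKO value was the low one by a wide margin: Hsph1 fell by 1.42 on the log2 scale (95% interval -1.49 to -1.34), that is 2.67-fold. Only 0.143% of the genes whose mean level reached 1000 had a lower value. Its value on the T cell core scale was -1.11.

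Hsp90aa1 encodes HSP90α, the stress-responsive cytosolic HSP90, and is read from the minus strand of chromosome 12 between 110690605 and 110702728. Its reads were 24004 in the control and 11021 in the cKO library, and it fell by 0.89 (95% interval -0.92 to -0.86). On the T cell core scale the value was -0.583, just short of 1.5-fold. Dnajb1, on the plus strand of chromosome 8 between 83608193 and 83612653, encodes the J-domain protein that delivers clients to HSP70 and starts its ATP hydrolysis. It had 2401 and 1156 reads and fell by 0.82 (95% interval -0.92 to -0.72), or was at -0.51 on the T cell core scale. Hsp90aa1 and Dnajb1 thus had nearly the same difference at levels that were about an order of magnitude apart in reads.

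Hspa1a and Hspa1b encode the stress-inducible cytosolic HSP70, and both were scarce in both libraries. Hspa1a, from 34969190 to 34972156 on chromosome 17, had 160 control reads (95% exact Poisson interval 136 to 187) and 139 cKO reads (117 to 164). Its change was 0.03 (95% interval -0.31 to 0.37), and a difference was not detectable at this depth. Hspa1b, from 34956436 to 34959238, had 254 reads (224 to 287) and 142 reads (120 to 167), and its change was -0.60 (-0.91 to -0.30). Counting error alone therefore leaves Hspa1b on either side of 1.5-fold. Hspa1a was at 0.34 and Hspa1b at -0.30 on the T cell core scale. Hspa1a also shares 564 exon bases in GENCODE vM21 with Gm20481 on the other strand. Summed, the pair had 414 and 281 reads and changed by -0.32 (95% interval -0.55 to -0.10), a difference of less than 1.5-fold. Hspa1l, the adjacent HSP70 gene best known from testis, had 110 and 90 reads and changed by -0.06. Per kilobase of exon, the constitutive Hspa8 stood at a deposited level of 11255 in the control library against 52.2 for Hspa1a and 87.7 for Hspa1b, and at 7332 against 53.3 and 57.6 in the cKO library.

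Hspa8, the constitutive HSP70 (HSC70) that folds new proteins and strips clathrin from vesicles, is read from the plus strand of chromosome 9 between 40800984 and 40810087. Its 50038 control reads and 27730 cKO reads gave a fall of 0.62 (95% interval -0.64 to -0.60). Hsp90ab1 encodes HSP90β, the constitutive HSP90, and is read from the minus strand of chromosome 17 between 45567775 and 45573271. It was the member with the most reads, 52472 and 30880, and its change was -0.53 (-0.55 to -0.51). The 2 genes were thus close to each other and to the threshold. On the T cell core scale they were at -0.31 and -0.22, so neither was 1.5-fold lower, whereas with library totals as the scaling Hsp90ab1 passed the threshold at -0.62, beside 26.6% of all genes lower. Small nucleolar RNA genes lie within exons of Hspa8, with up to 90 bases shared.

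Hspa5 encodes BiP, the HSP70 of the ER lumen whose binding keeps the sensors of the unfolded protein response inactive, and is read from the plus strand of chromosome 2 between 34771970 and 34777547. It had 14468 and 12242 reads, which is a deposited level of 13996 in the control and 13921 in the cKO library. Its change was -0.01 (95% interval -0.04 to 0.03), and the levels of the 2 libraries were within counting error of each other. On the T cell core scale it was at 0.30, near the median of 0.26 for all genes. Hspa8 reads per Hspa5 read, a ratio that needs no scaling between libraries, were 3.46 in the control and 2.27 in the cKO library, so that the ratio was 0.655 times as large (95% interval 0.637 to 0.674).

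Hspd1 and Hspe1 encode HSP60 and HSP10, the barrel and the lid of the mitochondrial chaperonin, and are transcribed head to head on chromosome 1, Hspd1 from 55077835 to 55088243 on the minus strand and Hspe1 from 55088132 to 55091307 on the plus strand. Hspd1 had 9038 and 4086 reads and fell by 0.91 (95% interval -0.97 to -0.86), the second largest difference among the members. Hspe1 had 1942 and 1034 reads and fell by 0.68 (-0.79 to -0.57), an interval that reaches just past the 1.5-fold line. They were at -0.61 and -0.37 on the T cell core scale. Both were low in the cKO library, and Hspd1 more so, with 4.65 Hspd1 reads per Hspe1 read in the control and 3.95 in the cKO library. In GENCODE vM21 their exons share 112 bases on opposite strands, and without strand information, which the sources used here do not give, reads on those bases cannot be told apart.

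**Figure D3:**
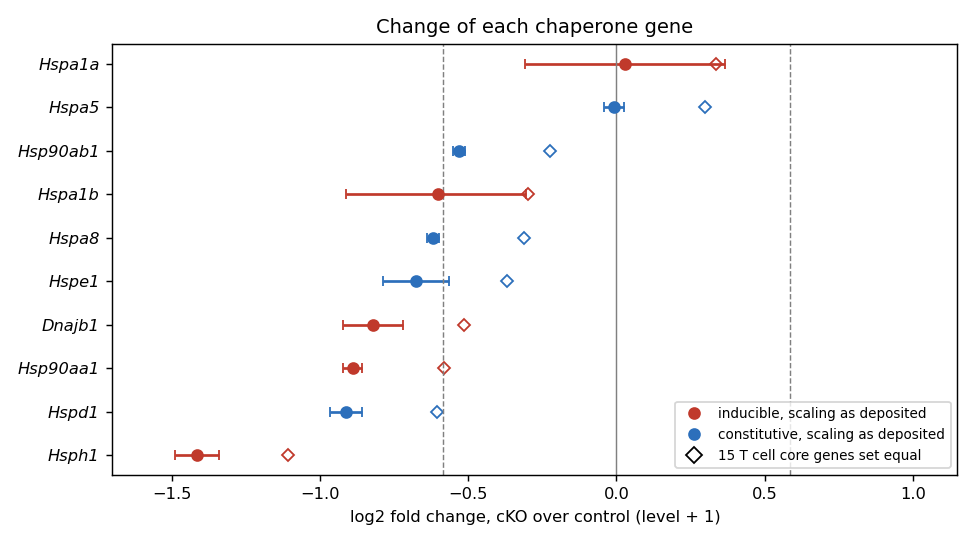
Log2 fold change of each member, cKO over control, for heat-inducible (red) and constitutive (blue) genes: filled circles with 95% counting-error intervals on the deposited scale, open diamonds with 15 T cell core genes set equal. Dashed lines mark 1.5-fold; Hsph1 is farthest left at -1.42 and Hspa5 and Hspa1a lie at 0 on the deposited scale.

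The comparison of inducible with constitutive chaperones depends on how the genes are weighted. Gene by gene the groups overlapped: the 5 inducible genes ranged from -1.42 to 0.03 with a median of -0.82, and the 5 constitutive genes from -0.91 to -0.01 with a median of -0.62. Read by read, the inducible genes held 32916 of the members' control reads, 20.5% (95% exact Clopper-Pearson interval 20.3 to 20.7), and 14402 of their cKO reads, 15.9% (15.7 to 16.2). There were 0.257 inducible reads per constitutive control read and 0.190 per constitutive cKO read, so the ratio was 0.737 times as large (95% interval 0.721 to 0.753). This ratio is free of any scaling between libraries, and it was 0.732 without Hspa1a and Hspa1b. Hsp90aa1 alone held 24004 of the inducible reads in the control library. Within families the direction was not the same. For HSP90 the inducible partner was the lower one, with 0.457 Hsp90aa1 reads per Hsp90ab1 read in the control and 0.357 in the cKO library. For HSP70 it was the higher one: Hspa1a and Hspa1b together had 0.00827 reads per Hspa8 read in the control and 0.0101 in the cKO library, a ratio 1.22 times as large (95% interval 1.05 to 1.43). The HSP70 pair is scarce, with 414 and 281 reads, and its 2 genes differed. Hspa1b at -0.60 was near Hspa8 at -0.62, and only Hspa1a, at 0.03 with 160 and 139 reads, was above it. For the cofactors of HSP70, Dnajb1 reads per Hspa8 read were 0.0480 and 0.0417, and Hsph1 reads per Hspa8 read were 0.122 and 0.0701. In contrast, the mitochondrial pair, counted as constitutive, fell by 0.87 in sum (95% interval -0.92 to -0.82), near the inducible group, whose sum fell by 0.96 (-0.99 to -0.93).

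**Figure D4:**
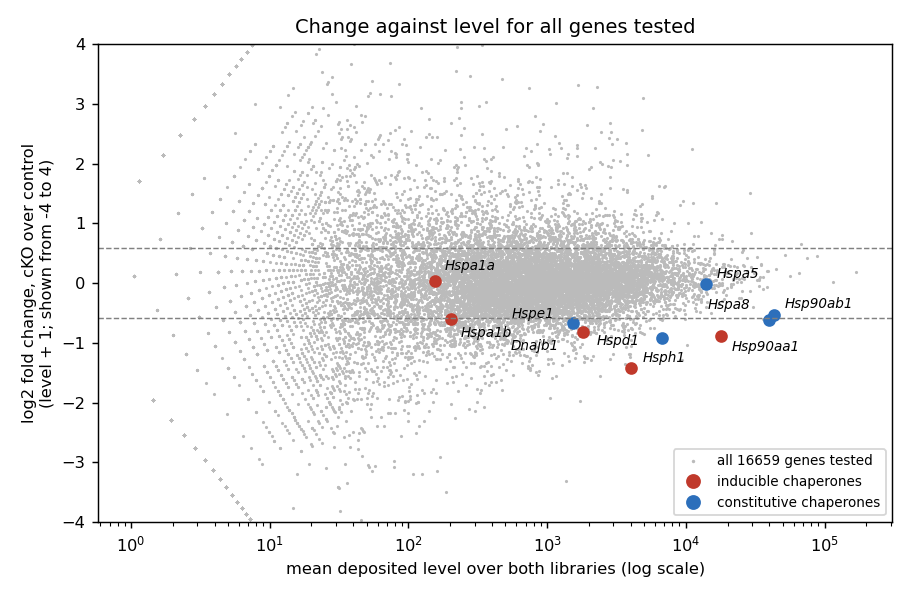
Log2 fold change against the mean deposited level over both libraries (log axis) for 16659 genes, shown from -4 to 4, with inducible members in red and constitutive members in blue and dashed lines at 1.5-fold. Hsph1, Hspd1 and Hsp90aa1 lie at the lower edge of the genes of their level, whereas Hspa5 lies in the middle.

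The other genes of the chaperone network were described with 9 lists written from general knowledge, and the 10 members are not among them. Of 116 of these genes past the filter on low values, 22 were at least 1.5-fold lower and 4 higher, with a median of -0.23, beside 24.2% and 17.2% of all genes. Of the 60 whose mean level reached 1000, 9 were lower and 1 was higher, with a median of -0.23, beside 5.17% and 10.1% of all genes in that range. Of 23 cochaperones, the cytosolic cofactors of HSP70 and HSP90, 7 were lower and 1 was higher, with a median of -0.37. The share lower was not far from the 24.2% of all genes, which include many low ones. At a mean level of 1000 or more, 4 were lower, beside 5.17% of all genes in that range. The median of the list there was -0.37, beside 0.06 for all genes. The higher gene, Fkbp5, also lies in that range. Cdc37, the most abundant of them, brings kinases to HSP90 and changed by -0.31 (95% interval -0.38 to -0.25). Bag2, which inhibits the ubiquitin ligase that works with HSP70, had the largest fall, 1.16, from 365 to 138 reads. Fkbp5, a prolyl isomerase of the HSP90 and steroid receptor complex and a known glucocorticoid receptor target, went the other way and rose by 0.97 (95% interval 0.89 to 1.06), from 1644 to 2748 reads. On the T cell core scale 1 cochaperone was lower, beside 19.3% of all genes, and the median was -0.0605. The following were named after their values were seen. Stip1, the adaptor that joins HSP70 to HSP90, fell by 0.81 from 4560 to 2214 reads. Fkbp4 and Ppid, prolyl isomerases of the same complex as Fkbp5, fell by 0.87 and 0.82, and Ahsa1, which activates the HSP90 ATPase, by 0.63. The nucleotide exchange factors Bag3 and Hspbp1 fell by 0.85 and 0.84.

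Of 37 J-domain proteins past the filter, 6 were lower and 1 was higher, beside 24.2% and 17.2% of all genes. Their median of -0.13 became 0.18 on the T cell core scale, beside 0.26 for all genes, and 2 were lower there beside 19.3% of all genes. Dnajb2, a neuron-enriched J-domain protein, had the largest fall, 1.03, from 446 to 185 reads, and Dnajb3 the largest rise, 0.75, from only 24 to 35 reads (95% interval -0.01 to 1.59). Dnajc13, which acts on endosomes and was the most abundant, changed by -0.04. Dnaja1 and Dnaja4, cytosolic partners of HSP70 named after their values were seen, fell by 0.82 and 0.93. Dnaja1 thus stood at the same difference as Dnajb1.

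Within the other HSP70 genes, 1 of 10 was lower and 0 were higher, beside 24.2% and 17.2% of all genes. On the T cell core scale 0 were lower beside 19.3% of all genes. The median of -0.12 became 0.18 on that scale, beside 0.26 for all genes. The lower gene on the deposited scale was Hspa4l, a relative of Hsph1, which fell by 0.62 (95% interval -0.75 to -0.50) from 1471 to 812 reads. Hspa4, the most abundant and of the same HSP110 branch, changed by -0.18 from 8714 to 6521 reads, and Hspa13 by 0.04. Hsph1, Hspa4l and Hspa4 therefore ranged from -1.42 to -0.18. The cytosolic chaperonin TRiC, which folds actin and tubulin, and its helper prefoldin had a median of -0.43. Of their 14 genes 4 were lower and 0 higher, beside 24.2% and 17.2% of all genes, which include many low ones. At a mean level of 1000 or more, 3 were lower, beside 5.17% of all genes in that range. The median of the list there was -0.47, beside 0.06 for all genes. On the T cell core scale 1 was lower, beside 19.3% of all genes. Cct5, the most abundant subunit, changed by -0.42, Pfdn6 fell by 0.89 and Pfdn5 was at 0.12.

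Like Hspa5, the other ER chaperones differed little. Of the 16 past the filter 0 were at least 1.5-fold lower and 0 higher, beside 24.2% and 17.2% of all genes. Most of them had a mean level of at least 1000, where only 5.17% of all genes were lower and 10.1% higher. The median was -0.16, or 0.15 on the T cell core scale, and the range on the deposited scale was -0.42 to 0.22. Hsp90b1 encodes GRP94, the HSP90 of the ER. It had 27474 and 21361 reads and changed by -0.13 (95% interval -0.16 to -0.10). Canx, the lectin chaperone calnexin, was the lowest at -0.42, and Pdia4, a disulfide isomerase, the highest at 0.22. Hsp90ab1 reads per Hsp90b1 read were 1.91 in the control and 1.45 in the cKO library, which is 0.757 times as large (95% interval 0.740 to 0.774).

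Mitochondrial chaperones and proteases had a median of -0.31. Past 1.5-fold in either direction were 0 of 12, beside 24.2% of all genes lower and 17.2% higher. Hspa9, the mitochondrial HSP70 and most abundant of the list, changed by -0.47 from 7710 to 4737 reads, and Lonp1, a matrix protease, was the lowest at -0.53. Hspd1 was lower than all of these, and Hspd1 reads per Hspa9 read were 1.17 in the control and 0.863 in the cKO library. Grpel1, the exchange factor of Hspa9, was at 0.11. Trap1, the mitochondrial HSP90, changed by -0.33.

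Hsf1, the factor that switches on the inducible chaperones, was at nearly the same level in both libraries. It had 1206 and 1036 reads and changed by 0.01 (95% interval -0.11 to 0.14), and the tables hold no measure of the activity of its protein. Of 5 genes in the list 2 were lower, beside 24.2% of all genes. These were Hsf4 at -1.03 from 37 to 15 reads and Hsf5 at -2.15 from 40 to 7 reads. Small heat shock proteins were barely expressed, with 240 control reads and 246 cKO reads on all 9 genes. Hspb6 held most of these, 189 and 197. Hspb7 had 8 and 16 reads and a change of 1.14 (95% interval -0.08 to 2.67), and Hspb9 had 15 and 13 reads. Of the 6 genes past the filter 2 were lower and 2 higher, beside 24.2% and 17.2% of all genes. The 2 lower ones, Hspb8 with 7 and 0 reads and Cryaa with 8 and 0 reads, are named because their count is small.

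Genes with a heat shock element of 3 units in their promoter window were looked at as well. Apart from members, 81 such genes were past the filter, and 35.8% were lower and 8.64% higher, beside 23.6% and 16.7% of the 13187 genes with any window. At a mean level of 1000 or more, 1 of 26 was lower, beside 5.19% of the genes with any window, and 26 genes are too few to compare these shares. The median of the 26 was -0.13, beside 0.06 for the genes with any window in that range. Of the 29 lower genes all but 1 were thus below that level, where the members other than Hspa1a and Hspa1b do not lie. A link between the element and the changes was not tested.

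Immediate early genes, transcription factors and feedback inhibitors that stimulated or freshly isolated cells switch on within minutes, differed in the opposite direction. Of 24 such genes 18 were higher and 0 lower, with a median of 0.81, beside 17.2% of all genes higher. Nr4a1, an orphan nuclear receptor induced by antigen receptor signaling, rose by 2.02 from 982 to 3400 reads, and Klf2, the most abundant, rose by 0.84. Nr4a2 had 74 and 65 reads and a change of 0.05. The stress-inducible Hspa1a and Hspa1b, at 0.03 and -0.60, were not among the higher genes.

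Proliferation and erythroid genes were lower in the cKO library, as most of the chaperones were. All 20 cell cycle genes were below 0 and 14 were at least 1.5-fold lower, beside 53.3% and 24.2% of all genes. Their median was -0.62, beside -0.62 for the constitutive and -0.82 for the inducible members. Their summed deposited level was 112192 in the control and 72704 in the cKO library, and Mki67, which marks cycling cells, had 44887 and 25205 reads. Red cells were lysed before the isolation. The 16 erythroid markers had a median of -1.16 and a summed level of 47691 and 24228, and Tfrc, the transferrin receptor, had 13678 and 4780 reads. T cell core genes were also lower, 14 of 15 below 0, with a median of -0.25 and a summed level of 73662 and 59552. B cell markers summed to 26063 and 95525 and macrophage markers to 27895 and 59972, and Marco alone among these 2 lists was at 0 reads, in the control library. Granulocyte markers summed to 262031 and 355622, but 4 of the 13 were below 0. By at least 1.5-fold, 2 of them were higher and 3 lower, beside 17.2% and 24.2% of all genes. CD8 T and NK cell markers summed to 8224 and 15153. The 9 genes listed as Treg markers had a median of 0.05, with 2 higher and 2 lower, and Ikzf2, the most abundant, had 2529 and 1850 reads. The part of these differences in the lower chaperone levels was not tested.

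**Figure D5:**
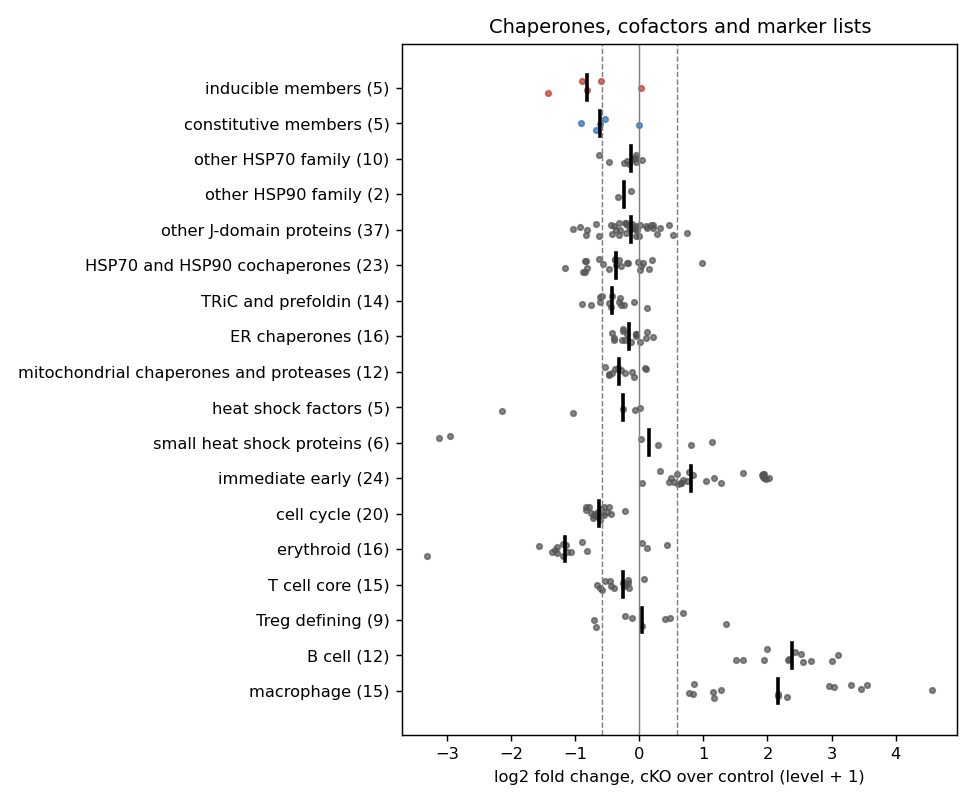
Log2 fold change of single genes (points) and the median (black bar) for the members, the lists of other chaperones and cofactors, and marker lists, with the number of genes in parentheses; dashed lines mark 1.5-fold. The inducible and constitutive members lie left of the ER chaperones, near the cell cycle genes, and opposite to the immediate early genes, whose median is 0.81.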

How the data were processed

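RNA-seq of splenic Treg cells gave 1 library per genotype. The authors aligned reads to mm10 with TopHat per the methods, and the submitters' processing notes also name bcl2fastq 2.0, STAR, StringTie and DESeq2; the counter and annotation are not given in the sources used here. The deposited values are a signal, namely counts scaled by a constant of each library: 100% of them were whole multiples of 1 step, within 0.01 reads. The chaperones and lists were chosen with earlier results of these data known.

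Fold changes used a pseudocount of 1 and a minimum mean level of 1, and the 1.5-fold threshold of the methods. Log2 ratio intervals at 95% came from exact Clopper-Pearson intervals on recovered reads, and ratios of read ratios from the exact conditional odds ratio. No molecular identifiers are named, so reads may be copies of 1 molecule and intervals cover counting error only.

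Named genes were all members, Mettl14 and Foxp3, and in each list the largest rise and fall with a mean level of at least 10 and the most abundant gene; others are marked in the text. Coordinates and exon lengths came from GENCODE vM21 on GRCm38, the assembly of mm10, and promoter windows from RefSeq on GRCm38.p6. Reads with sequence shared by other loci add uncertainty: 50-base stretches also found in transcripts of other genes made up 74.8% of the Hspa8 transcript, 58.5% of Hsp90aa1, 44.8% each of Hspd1 and Hspe1 and 4.49% of Hsp90ab1, 0.441% of Dnajb1, and 0% of Hsph1 and Hspa5.

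Alternatives were other pseudocounts, filters, scalings and thresholds. As an added alternative, edgeR's exact test was run on recovered reads of 14863 genes with at least 10 reads, at an adjusted p under 0.1 and an assumed biological coefficient of variation; it compares these libraries, not the genotypes, and its steps were tested on simulated data. Python 3.11.15, scipy 1.17.1, R 4.3.3, edgeR 4.0.16 and DESeq2 1.42.0 (size factors) were used.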

Additional observations from a re-analysis of the deposited data

How the results depend on the processing

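No paired analysis was possible because there is a single library on either side, and no library could be left out. Across the pseudocounts of 0.1 and 5, no filter on low values, and the median-of-ratios scaling, the medians of the members and of the 9 chaperone lists stayed within their counting-error intervals, and 7 members were at least 1.5-fold lower under each. With the TMM scaling the constitutive median was -0.64, outside its narrow interval. With library totals it was -0.71, the medians of the other HSP90 genes, TRiC and prefoldin, and ER chaperones were -0.32, -0.52 and -0.25, and 8 members were lower. With equal T cell core genes the inducible median was -0.51 and the constitutive one -0.31. The medians under it were 0.0593 for heat shock factors, 0.0762 for other HSP90 genes, 0.18 for other HSP70 genes, 0.18 for J-domain proteins, 0.46 for small heat shock proteins, -0.0605 for cochaperones, -0.12 for TRiC and prefoldin, 0.15 for ER chaperones and -0.0023 for mitochondrial chaperones and proteases, beside 0.26 for all genes, so that the small heat shock proteins alone among the 9 lists lay above all genes. The sign thus turned for heat shock factors, other HSP70 and HSP90 genes, J-domain proteins and ER chaperones, and 4734 genes were higher. This scale adds 0.31 to every change, so these lists stayed below all genes as on the deposited scale. The difference of the inducible and constitutive medians was -0.20. It lay between -0.27 and -0.17 under every alternative run, including the sum of Hspa1a and Hspa1b, the cytosolic members alone, and the set without Hspa5. A common scaling of a library cancels in this difference, so the alternative scalings could not move it and are no check on it.

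Of all genes, 2864 were higher and 4028 lower. A minimum mean level of 10 left 2035 lower, and a threshold of 2-fold left 1722 higher. Alternatives chosen after seeing the data were a minimum mean level of 1000, with 493 higher and 253 lower and a heat shock factor median of 0.0141 from the 1 gene left, and edgeR's exact test, which called 931 higher and 1488 lower at an assumed coefficient of biological variation of 0.2 and 229 and 569 at 0.4. With 1 library per genotype, no difference has a replicate check. Depth limits Hspa1a, Hspa1b and the small heat shock proteins, the members and list with the fewest reads.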
